A study of Homo sapiens with 4 samples.

Results

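The YAP and TEAD pathway was followed through 10 genes out of the 32955 in the table: the coactivators YAP1 and WWTR1 (which encodes TAZ), the DNA-binding partner TEAD1, the kinase LATS2, the LATS inhibitor AJUBA, the YAP-binding angiomotin proteins AMOTL1 and AMOTL2, and the targets CTGF, CYR61 and ANKRD1. CTGF and CYR61 stand under these older symbols (now CCN2 and CCN1). They were chosen by name and by their RPKM levels in these 4 libraries, which were already known, so differences between libraries with the number 1 and libraries with the number 2 are given as a description, without a test. All 10 genes were found, and all 10 passed the filter on low values that left 13871 genes to test.

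RNA was sequenced from the human breast cancer line MDA-MB-231, which had been transfected with mimic NC (a control oligonucleotide; 2 libraries) or with miR-217 mimic (a synthetic RNA standing in for the microRNA miR-217; 2 libraries). The cells of both groups were grown in DMEM with fetal bovine serum, and no dose or time after transfection is given in the labels. Each group has a replicate 1 and a replicate 2, and the labels do not say what the number marks or whether the replicates came from separate cultures, so that p-values measure the spread between these libraries, which may be technical. The study set out to find genes downstream of miR-217.

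The Hippo pathway is a kinase cascade that senses cell density, shape, attachment and mechanical tension. The kinases STK3 and STK4 act with SAV1 on LATS1, LATS2 and their MOB1 partners, and the LATS kinases phosphorylate YAP and TAZ, which are then kept in the cytoplasm or degraded. Unphosphorylated YAP and TAZ enter the nucleus and activate genes through TEAD proteins, CTGF, CYR61 and ANKRD1 among them, while LATS2 and AMOTL2 are targets that feed back on the pathway. Much of this control acts on protein phosphorylation and location, which RNA levels do not report. MDA-MB-231 is known to carry a mutation in NF2, an upstream activator of the cascade.

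Levels are given as RPKM, the reads on a gene scaled to the length of its exons and to the reads counted on all genes. Differences are given as differences in log2(RPKM + 1), which understate the change of genes with low levels. The libraries held 32635814 to 57933183 reads on genes, fewest in replicate 2 of the miR-217 mimic. The first principal component took 71.3% of the variance over the genes tested and separated the numbers, with number 1 of both groups at -0.52 and -0.45 and number 2 at 0.32 and 0.65. Both number 2 libraries (47374957 and 32635814) also held fewer reads on genes than both number 1 libraries (57933183 and 53356283). Their mitochondrial share of reads was larger, at 3.98% and 4.78% against 3.56% and 3.58%. Whether these measures go with the differences between the numbers was not tested. VIM (27.9 to 36.9 RPKM), CD44 (13.5 to 26.0 RPKM), CAV1 (5.17 to 7.92 RPKM) and EGFR (19.5 to 22.7 RPKM) were present. ESR1 was at 0.03 to 0.08 RPKM, whereas CDKN2A ranged from 10.5 to 13.2 RPKM. The level of CDKN2A goes against the label because the line is known for a deletion of that gene.

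The microRNA is shown because matches to the seed of its 5p strand were looked for in the members. The seed (bases 2 to 8) of each strand is in capitals, and matches to the 3p seed were not looked for. RefSeq places the mature strands on GRCh38.p14 at chr2:55983020-55983042 (5p) and chr2:55982984-55983005 (3p), both on the minus strand.
hsa-miR-217-5p: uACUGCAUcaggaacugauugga
hsa-miR-217-3p: cAUCAGUUccuaaugcauugcc

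The 3 targets CTGF, CYR61 and ANKRD1 were much lower in both libraries with the number 2 than in both with the number 1, in either group. CTGF, a secreted matricellular protein (chr6:131948176-131951373, minus strand, hg38), was at 22.5 RPKM in mimic NC 1 and 2.44 in mimic NC 2, and at 22.9 RPKM in miR-217 mimic 1 and 4.01 in miR-217 mimic 2. The number 1 libraries of the groups lay close together, and both number 2 libraries lay far below them. CYR61, a related secreted protein that binds integrins (chr1:85580761-85583962, plus strand), was at 101.7 and 35.3 RPKM in mimic NC 1 and 2 and at 112.0 and 46.1 RPKM in miR-217 mimic 1 and 2. ANKRD1, a muscle ankyrin repeat protein of nucleus and sarcomere (chr10:90912096-90921276, minus strand), was at 6.51 and 0.21 RPKM in mimic NC 1 and 2 and at 5.93 and 0.28 RPKM in miR-217 mimic 1 and 2. The last gene thus went from several RPKM to near the floor of the measurement, with 746 and 626 reads in the number 1 libraries and 20 and 18 in the number 2 libraries.

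Expressed as a ratio of RPKM, ANKRD1 was 30.5-fold higher in mimic NC 1 than in mimic NC 2 (95% exact binomial interval 19.6 to 50.2) and 21.3-fold higher in miR-217 mimic 1 than in miR-217 mimic 2 (13.4 to 36.1). For CTGF the ratios were 9.23 (8.15 to 10.5) in mimic NC and 5.72 (5.08 to 6.46) in the miR-217 mimic. For CYR61 they were 2.88 (2.78 to 2.98) and 2.43 (2.34 to 2.52). These intervals cover counting error alone, and reads without molecular identifiers are not independent molecules. For CTGF and CYR61 the interval in mimic NC lay above that in the miR-217 mimic, and for ANKRD1 the intervals overlapped.

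The promoters of CTGF and ANKRD1 are shown because these genes had the largest differences between the numbers among the members, and those of AMOTL2 and LATS2 because they are also described as YAP/TEAD targets and differed less. Each run is a RefSeq window on GRCh38.p14, 250 bases before to 50 after an annotated start, with GGAATG (the core TEAD element; CATTCC on the other strand) in capitals. CTGF lies at chr6:131951323-131951622, ANKRD1 at chr10:90921038-90921337, the second AMOTL2 start at chr3:134374398-134374697 and LATS2 at chr13:21061537-21061836, all on the minus strand.
CTGF: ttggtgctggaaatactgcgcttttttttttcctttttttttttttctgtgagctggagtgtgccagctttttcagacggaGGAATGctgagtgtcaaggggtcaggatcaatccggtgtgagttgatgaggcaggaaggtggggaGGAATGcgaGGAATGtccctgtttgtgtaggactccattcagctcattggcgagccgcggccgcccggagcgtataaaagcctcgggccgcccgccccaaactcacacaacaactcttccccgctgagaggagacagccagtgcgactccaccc
ANKRD1: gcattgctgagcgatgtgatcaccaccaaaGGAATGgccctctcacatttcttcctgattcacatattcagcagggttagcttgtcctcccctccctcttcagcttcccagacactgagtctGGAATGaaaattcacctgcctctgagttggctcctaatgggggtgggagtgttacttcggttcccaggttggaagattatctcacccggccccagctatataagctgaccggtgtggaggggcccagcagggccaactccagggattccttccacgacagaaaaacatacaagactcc
AMOTL2: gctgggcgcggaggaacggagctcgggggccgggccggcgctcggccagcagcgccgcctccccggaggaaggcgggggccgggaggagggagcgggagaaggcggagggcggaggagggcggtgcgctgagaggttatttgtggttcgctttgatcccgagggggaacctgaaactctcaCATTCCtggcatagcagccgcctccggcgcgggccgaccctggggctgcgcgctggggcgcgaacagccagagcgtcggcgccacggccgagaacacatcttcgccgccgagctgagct
LATS2: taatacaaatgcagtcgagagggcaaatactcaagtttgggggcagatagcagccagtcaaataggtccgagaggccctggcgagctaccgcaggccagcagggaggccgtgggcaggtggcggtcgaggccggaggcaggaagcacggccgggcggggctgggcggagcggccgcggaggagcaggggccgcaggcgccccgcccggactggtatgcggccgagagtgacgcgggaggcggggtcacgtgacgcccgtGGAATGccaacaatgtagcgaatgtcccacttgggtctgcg

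The CTGF window held the element 3 times, beginning 169, 104 and 95 bases before the start, and the ANKRD1 window held it 2 times, 220 and 128 bases before the start. The AMOTL2 window held it once, as CATTCC, 69 bases before the start, and the LATS2 window once, 9 bases after it. Of all 35116 promoter windows in the reference, 14.0% held the element on either strand, 1.37% held it 2 or more times and 0.128% held it 3 or more times. For 8 of the 10 genes there were 11 windows, of which 6 held the element, in CTGF, ANKRD1, AMOTL2, AJUBA, LATS2 and YAP1. CYR61 and TEAD1 had no window, and the first AMOTL2 window did not hold the element. Of other described targets, EDN1 (-1.91 between the numbers) held it once, in the second of its 3 windows, and CCDC80 (-1.44) did not hold it. Whether the copies of the element go with the difference between the numbers was not tested. A match is only a run of letters, and binding was not measured.

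**Figure D1:**
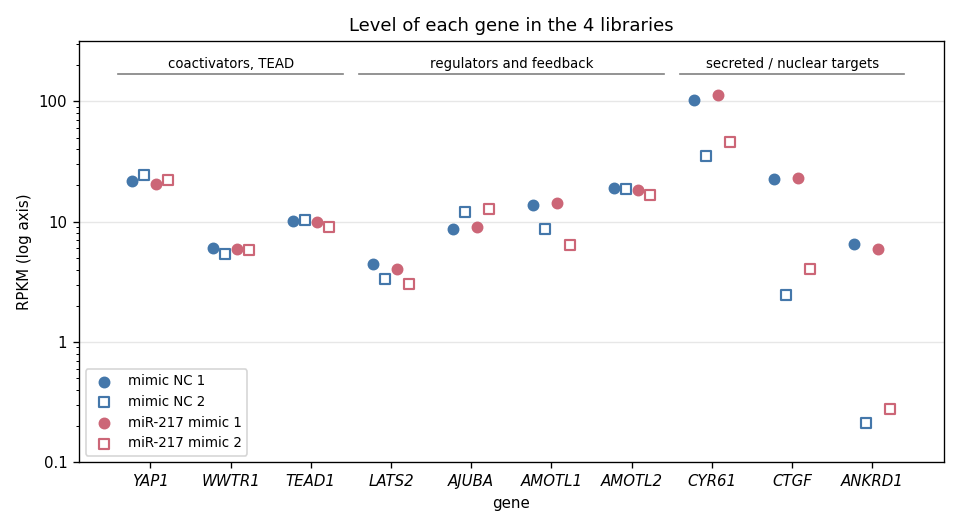
Level of the 10 genes in RPKM (log axis) in each of the 4 libraries, with filled circles for number 1, open squares for number 2, blue for mimic NC and red for miR-217 mimic. Both open squares of CYR61, CTGF and ANKRD1 lie below both filled circles, from 0.21 and 0.28 against 6.51 and 5.93 RPKM for ANKRD1, while the 4 points of YAP1, WWTR1, TEAD1 and AMOTL2 lie close together.

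The coactivators and TEAD1 did not share this pattern. YAP1, the coactivator itself, was at 21.7 and 24.3 RPKM in mimic NC 1 and 2 and at 20.8 and 22.3 RPKM in miR-217 mimic 1 and 2. Both number 2 libraries were slightly above both number 1 libraries, the opposite direction to CTGF, CYR61 and ANKRD1. WWTR1 was at 6.06 and 5.40 RPKM in mimic NC and at 5.93 and 5.86 RPKM in the miR-217 mimic, and TEAD1 was at 10.2 and 10.4 RPKM in mimic NC and at 9.98 and 9.05 RPKM in the miR-217 mimic. WWTR1 was thus lower in number 2 by a narrow margin, and the numbers overlapped for TEAD1. On the log2 scale the differences of number 2 minus number 1, averaged over the groups, were 0.13 for YAP1, -0.08 for WWTR1 and -0.05 for TEAD1.

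The members that regulate the coactivators were divided. AMOTL1, which binds YAP at cell junctions, was at 13.7 and 8.65 RPKM in mimic NC 1 and 2 and at 14.2 and 6.37 RPKM in miR-217 mimic 1 and 2. It was lower in number 2, with a ratio of 1.58 (1.52 to 1.64) in mimic NC and 2.23 (2.12 to 2.34) in the miR-217 mimic, so that here the larger difference was in the miR-217 mimic. AMOTL2, its paralog and a target of YAP and TEAD, was at 19.2 and 18.7 RPKM in mimic NC and at 18.2 and 16.6 RPKM in the miR-217 mimic, and its numbers overlapped. LATS2, the kinase that phosphorylates YAP and TAZ, was at 4.41 and 3.31 RPKM in mimic NC and at 4.06 and 3.02 RPKM in the miR-217 mimic. AJUBA, a LIM protein that restrains LATS kinases, was at 8.68 and 11.95 RPKM in mimic NC and at 8.96 and 12.8 RPKM in the miR-217 mimic. It was thus the member with the clearest higher level in number 2, by 0.42 in mimic NC and 0.47 in the miR-217 mimic on the log2 scale, whereas the difference of LATS2 was -0.33 in both groups.

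In all, both number 2 libraries were below both number 1 libraries for 6 of the 10 genes (35.5% of all genes tested), above them for 2 (26.9% of all genes tested), and the numbers overlapped for AMOTL2 and TEAD1. A difference at or under -1 on the log2 scale was seen for ANKRD1 (-2.53), CTGF (-2.51) and CYR61 (-1.38), and by the same measure for 78 of all genes tested (0.562%). In order from the lowest of the 13871 differences, ANKRD1 was number 5, CTGF number 6 and CYR61 number 34, followed by AMOTL1 at 164. No member had a difference at or over 1 (0.577% of all genes tested). The median over the 10 genes was -0.21 and the median over all genes tested was -0.04. Within 0.5 of 0 lay 6 of the 10 genes, against 12690 of the 13871 genes tested. These shares were read from values that were known when the genes were chosen and are not a test.

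**Figure D2:**
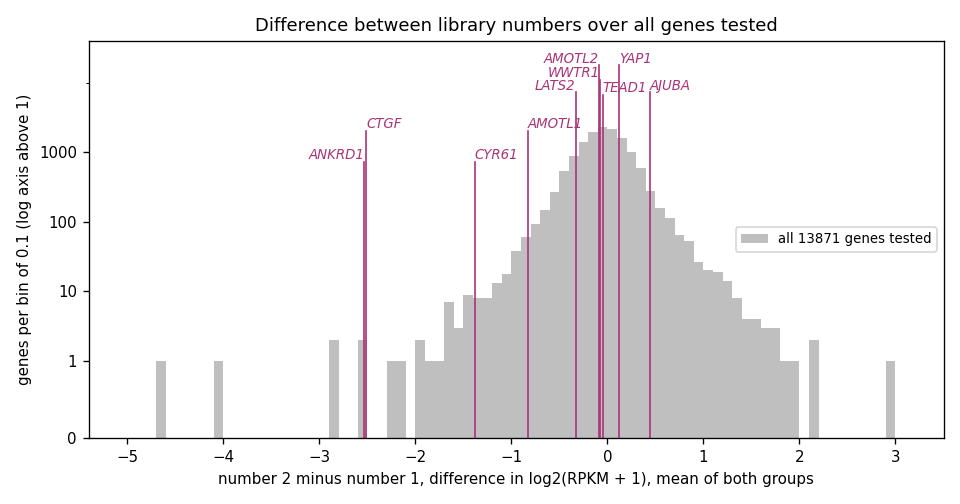
Number of genes (log axis above 1) per bin of 0.1 in the difference of number 2 minus number 1 in log2(RPKM + 1), averaged over both groups, for the 13871 genes tested, with the 10 genes marked by vertical lines. ANKRD1 (-2.53), CTGF (-2.51) and CYR61 (-1.38) lie in the sparse lower tail, and AMOTL2, WWTR1, TEAD1 and YAP1 lie in the centre.

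The order of the members by level moved with the number. Over all libraries the order of mean RPKM was CYR61 (73.8), YAP1 (22.3), AMOTL2 (18.2), CTGF (13.0), AMOTL1 (10.7), AJUBA (10.6), TEAD1 (9.91), WWTR1 (5.81), LATS2 (3.70) and ANKRD1 (3.23). Of neighbours in this order, CYR61 and YAP1, YAP1 and AMOTL2, TEAD1 and WWTR1, and WWTR1 and LATS2 had no overlapping values, and the other neighbours did not differ beyond their spread. CYR61 was the highest of the 10 in each library. CTGF was second in both number 1 libraries, 9th in mimic NC 2 and 8th in miR-217 mimic 2, and ANKRD1 was 8th in both number 1 libraries and last in both number 2 libraries.

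The miR-217 mimic was then compared with mimic NC, which is the comparison of the study. None of the 10 genes differed at an adjusted p under 0.05 by limma (two-sided, Benjamini-Hochberg over all genes tested), and all had an adjusted p of 1.0. By the same test no gene of the table did (0.0% called), and at an unadjusted p under 0.05 no member was called against 165 of all genes tested (1.19%). With voom on the recovered reads no member was called either. Neither fit held a replicate term, so the difference between the numbers counts as spread within the groups in both. With 2 libraries a group, an exact two-sided permutation test of a single gene cannot give a p under 0.333.

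For the targets, CTGF was at 12.5 ± 14.2 RPKM in mimic NC and 13.5 ± 13.4 RPKM in the miR-217 mimic (mean ± SD, n = 2 each). Its log2 difference of the miR-217 mimic minus mimic NC was 0.29 with a standard error of 1.16, 0.03 between the number 1 libraries and 0.54 between the number 2 libraries. CYR61 was at 68.5 ± 46.9 RPKM in mimic NC and 79.05 ± 46.5 RPKM in the miR-217 mimic, a difference of 0.26 with a standard error of 0.65, 0.14 within number 1 and 0.38 within number 2. Both genes were thus higher with the miR-217 mimic within each number, by far less than the numbers differed. ANKRD1 was at 3.36 ± 4.45 RPKM in mimic NC and 3.10 ± 3.995 RPKM in the miR-217 mimic, a difference of -0.02 that became 0.01 when each library was centred on its median and 0.07 with a pseudocount of 0.1. It was -0.12 within number 1 and 0.08 within number 2.

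For the coactivators, YAP1 was at 23.0 ± 1.81 RPKM in mimic NC and 21.5 ± 1.09 RPKM in the miR-217 mimic, a log2 difference of -0.09 with a standard error of 0.13. WWTR1 differed by 0.04 with a standard error of 0.12. TEAD1 was at 10.3 ± 0.17 RPKM in mimic NC and 9.52 ± 0.66 RPKM in the miR-217 mimic, a difference of -0.11 with a standard error of 0.12, which was -0.03 within number 1 and -0.19 within number 2. Of the regulators, AMOTL2 differed by -0.12 with a standard error of 0.12 and LATS2 by -0.10 with a standard error of 0.19. AMOTL1 differed by -0.17 with a standard error of 0.41, with 0.05 within number 1 and -0.39 within number 2, and AJUBA by 0.06 with a standard error of 0.23.

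For TEAD1 and AMOTL2, both values with the miR-217 mimic were below both values with mimic NC (13.5% of all genes tested), no member was higher in both (9.72% of all genes tested), and the groups overlapped for the other 8. The counts are close to what the shares over all genes would give for 10 genes. The median difference with the mimic was -0.06 over the 10 genes and -0.02 over all genes tested.

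**Figure D3:**
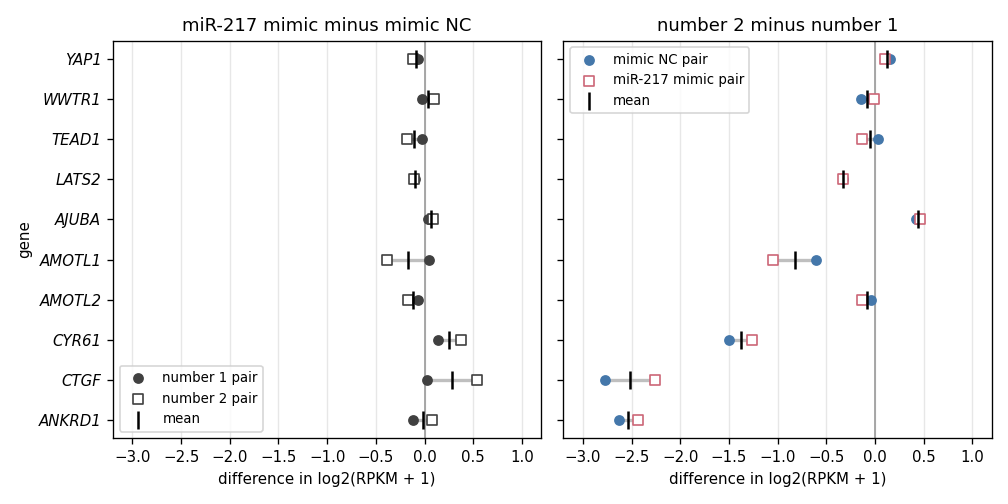
Differences in log2(RPKM + 1) of the 10 genes, on the left for miR-217 mimic minus mimic NC within each number and on the right for number 2 minus number 1 within each group, with a black bar at the mean of each pair of points. On the left all points lie between -0.39 and 0.54, and on the right CTGF and ANKRD1 lie between -2.77 and -2.26 in either group.

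Matches to the miR-217-5p seed were looked for in the longest 3'UTR of each gene in GENCODE 29 (GRCh38), as ATGCAGT, which pairs with bases 2 to 8, or TGCAGTA, which pairs with bases 2 to 7 followed by A. The sense strand was searched, and a run of ATGCAGTA counts once. A match was found in 4 of the 10 genes, AMOTL1, AJUBA, TEAD1 and WWTR1, and in 21.7% of the 9911 tested genes with a 3'UTR. The 3'UTRs of these 4 genes were 5958, 2269, 7261 and 3570 bases long. Those of members without a match ran from 770 (ANKRD1) to 3483 bases (YAP1). The share over all genes was not matched for length, so it cannot show an excess of matches. AMOTL1 held 3 matches, and in its 3'UTR the first pairing base lay 447, 3867 and 610 bases after the stop codon (chr11:94871242-94871248, chr11:94874662-94874668 and chr11:94871405-94871411). The matches of AJUBA (chr14:22972840-22972846), TEAD1 (chr11:12941754-12941760) and WWTR1 (chr3:149519177-149519183) pair with bases 2 to 8. Each is shown with up to 11 bases on either side and the pairing bases in capitals, beside the longer match nearest the stop codon of SOS1 (chr2:38985692-38985699), the gene the study followed.
AMOTL1, 447 bases after the stop: gtcttggcataATGCAGTgtcacctgtgc
AMOTL1, 3867 bases after the stop: gcaccctcatgATGCAGTggctgtagcac
AMOTL1, 610 bases after the stop: tttctgaattcTGCAGTAttttctaaaca
AJUBA: ggttgtggttgATGCAGTgtgggatgtcc
TEAD1: gcatgtagggtATGCAGTgcaaaaggctg
WWTR1: gttcaactggcATGCAGTctgcctgcatt
SOS1: tcttcttcaagATGCAGTAtaagacaatga

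Of these 4 genes, AMOTL1 (-0.17) and TEAD1 (-0.11) were below 0 with the miR-217 mimic, AJUBA (0.06) and WWTR1 (0.04) were above it, and none was called. SOS1 was at 7.735 and 7.19 RPKM in mimic NC and at 6.18 and 5.26 RPKM in the miR-217 mimic, a log2 difference of -0.34 with a standard error of 0.13, an unadjusted limma p of 0.0526 and an adjusted p of 1.0. No match was found in CTGF, CYR61, ANKRD1, AMOTL2, LATS2 or YAP1, which says only that these letters are not in those 3'UTRs.

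The other genes of the pathway were taken from lists by role, and at an unadjusted p under 0.05 limma called none of them with the mimic. Over the 38 of 45 Hippo genes outside the members that passed the filter, 14 were above and 24 below 0 with the mimic, with a median of -0.04. Of all 13871 genes tested, 6157 were above and 7714 below 0 with the mimic, with a median of -0.02. For the 38 Hippo genes, the difference of number 2 minus number 1 had a median of -0.03. Of the 38, 37 lay within 0.5 of 0, as did 12690 of the 13871 genes tested. Both number 2 libraries were above both number 1 libraries for 12 of the 38 (26.9% of all genes tested) and below them for 16 (35.5% of all genes tested).

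Among the 11 upstream genes tested, differences between the numbers ran from -0.30 for TAOK2 and -0.18 for FAT1, an atypical cadherin, to 0.16 for RASSF1 and 0.29 for WWC3, a relative of KIBRA. NF2, the scaffold known to be mutated in this line, was at 4.76 and 5.26 RPKM in mimic NC and at 4.91 and 5.75 RPKM in the miR-217 mimic. The same genes differed with the mimic by -0.22 for TAOK1 and -0.16 for TAOK3, kinases that can activate STK3 and STK4, up to 0.14 for RASSF1. Of the 11 kinases and cofactors tested, MINK1 (-0.32) and MOB1A (-0.28) were lowest and MAP4K4 (0.44) and STK4 (0.16) highest between the numbers. LATS1, the kinase that acts beside LATS2, was at 1.71 and 1.68 RPKM in mimic NC and at 1.61 and 1.985 RPKM in the miR-217 mimic. The 7 inhibitors tested, most of them parts of the STRIPAK phosphatase complex, ran from -0.16 for STRN3 to 0.35 for STRN4 between the numbers. STRN itself had the lowest difference with the mimic, -0.26, with an unadjusted limma p of 0.0699. Of the 4 tested genes of YAP binding and turnover, PTPN14, which holds YAP in the cytoplasm, was at -0.35 between the numbers and BTRC, the ubiquitin ligase subunit for phosphorylated YAP, at -0.21 with the mimic.

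The other TEAD genes differed between the numbers by -0.0034 for TEAD4 and -0.14 for TEAD3, for which the numbers overlapped, and by -0.35 for TEAD2, which was lower in both number 2 libraries. Of the TEAD cofactors, VGLL4, which competes with YAP for TEAD, was at 2.21 and 1.60 RPKM in mimic NC and at 1.95 and 1.37 RPKM in the miR-217 mimic. VGLL3, a TEAD cofactor of the same family, was at 5.37 and 2.77 RPKM in mimic NC and at 4.25 and 2.335 RPKM in the miR-217 mimic. Its difference of -0.71 between the numbers made it the only one of the 38 genes beyond 0.5.

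The wider set of genes described as YAP/TEAD targets did not move one way between the numbers. Of 19 tested, 12 were above and 7 below 0, and both number 2 libraries were above both number 1 libraries for 11 (26.9% of all genes tested) and below them for 4 (35.5% of all genes tested). Of all genes tested, 6127 were above and 7744 below 0. The median was 0.22, on the other side of 0 from the members. EDN1, the precursor of endothelin, was at 33.0 and 9.37 RPKM in mimic NC 1 and 2 and at 32.6 and 6.83 RPKM in miR-217 mimic 1 and 2. CCDC80, a secreted matrix protein, was at 28.85 and 11.6 RPKM in mimic NC and at 24.0 and 7.09 RPKM in the miR-217 mimic. These were the only genes of the list at or under -1 (-1.91 and -1.44), and both number 2 libraries lay below both number 1 libraries for each. In the other direction, GADD45A, a stress-inducible growth arrest gene, was at 10.6 and 26.25 RPKM in mimic NC and at 13.0 and 32.3 RPKM in the miR-217 mimic. AREG, a ligand of EGFR, was at 3.39 and 6.62 RPKM in mimic NC and at 3.64 and 7.64 RPKM in the miR-217 mimic. AXL, THBS1, F3 and FJX1, which are also described as targets, were higher in number 2 (0.38 to 0.70). With the mimic, the list ran from -0.44 for CCDC80 and -0.33 for IGFBP3 to 0.28 for GADD45A and 0.35 for THBS1, none called.

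Genes of the actin cytoskeleton that SRF and its MRTF coactivators control were included because several are described as shared with YAP/TEAD. Of 13 tested, 10 were below and 3 above 0 between the numbers, and both number 2 libraries were below both number 1 libraries for 9 (35.5% of all genes tested), with a median of -0.23. MYL9, a regulatory light chain of myosin, was at 48.2 and 19.7 RPKM in mimic NC and at 49.5 and 19.7 RPKM in the miR-217 mimic, a difference of -1.27 between the numbers and 0.02 with the mimic. ACTB, a cytoplasmic actin, was at 693.1 and 395.8 RPKM in mimic NC and at 748.4 and 474.4 RPKM in the miR-217 mimic. FHL2 (0.13) and ZYX (0.28), both LIM proteins, were at the other end, and SRF itself was at 0.07. With the mimic the list ran from -0.05 for TPM1 to 0.19 for ACTG1 and 0.26 for CNN2, none called.

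**Figure D4:**
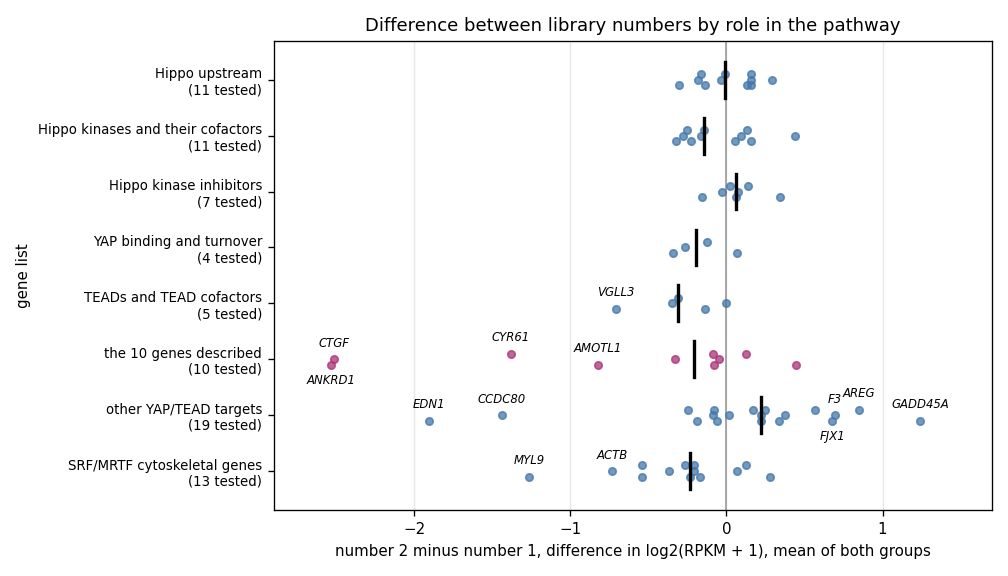
Difference of number 2 minus number 1 in log2(RPKM + 1), averaged over both groups, for each tested gene of the lists by role, 1 point a gene, with a black bar at the median of each list and names for genes at or beyond 0.65 in either direction. Points of the 5 lists of regulators lie within 0.5 of 0 except VGLL3 (-0.71). The regulator AMOTL1 (-0.82) stands in the row of the 10 genes described. The targets spread from ANKRD1 (-2.53) to GADD45A (1.24), and of the 19 other YAP/TEAD targets tested 12 lie within 0.5 of 0. Of all 13871 genes tested, 12690 lie within 0.5 of 0.

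Over the 4 libraries, the genes whose pattern was most like that of CTGF were found as the smallest root mean square difference between log2(RPKM + 1) values after subtracting each gene's mean. Among all genes tested these were ANKRD1 (0.17), the AP-1 genes FOSB (0.25) and JUN (0.30), PDZK1 (0.43), a scaffold for membrane transporters, and SGK1 (0.43), a kinase induced by serum and glucocorticoid. FOSB was at 8.15 and 0.17 RPKM in mimic NC and at 6.80 and 0.22 RPKM in the miR-217 mimic, and JUN at 69.4 and 14.3 RPKM in mimic NC and at 60.0 and 16.6 RPKM in the miR-217 mimic. EDN1 came 6th and CYR61 18th in this order, ahead of MYL9 (29th) and CCDC80 (34th), whereas AMOTL1 was at 169 and LATS2 at 1697. With 4 libraries that differ mainly by their number, likeness to CTGF is mostly likeness in that difference.

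Markers of other cells also differed between the libraries. The summed level of the fibroblast markers COL1A1, DCN and LUM was 13.7 and 5.50 RPKM in mimic NC 1 and 2 and 12.2 and 5.86 RPKM in miR-217 mimic 1 and 2. Both number 2 libraries were below both number 1 libraries for 3 of these 3 genes (35.5% of all genes tested), as for CTGF, CYR61 and ANKRD1. COL1A1, at a mean of 0.76 RPKM, did not pass the filter on low values. The summed level of the blood cell markers PTPRC, CD3E and CD14 was 0.79 and 0.67 RPKM in mimic NC 1 and 2. It was 1.09 and 2.34 RPKM in miR-217 mimic 1 and 2. Both miR-217 mimic libraries were above both mimic NC libraries for each of these blood markers (9.72% of all genes tested), none of which passed the filter. The endothelial markers PECAM1 and VWF summed to 0.06 to 0.14 RPKM. The part of these markers of other cells in the differences was not tested, and in bulk samples fewer cells of a type and less RNA per cell cannot be told apart.

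Some members share exon bases with another gene in the table. CTGF shares 8.34% of its exon bases with RP11-69I8.3 on the opposite strand, which had 91 and 13 reads in mimic NC and 100 and 14 in the miR-217 mimic, against 3048 and 270, and 2862 and 306, for CTGF. YAP1 shares 9.98%, WWTR1 9.45% and AMOTL1 4.94% with a gene on the opposite strand, and AMOTL2 3.13% and AJUBA 0.84% with a gene on the same strand. CYR61, ANKRD1, LATS2 and TEAD1 share none. The strand setting of the counting is not given in the sources used here.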

How the data were processed

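RNA-seq was measured in 4 libraries labelled MDA-MB-231, and groups and replicate numbers follow the sample labels. The authors deposited RPKM per gene with exon coordinates and length. Their processing notes list Trimmomatic 0.36, featureCounts in Subread 1.5.1, edgeR 3.12.1 and hg38, and the aligner and annotation are not given in the sources used here. RPKM times length summed to 1000000 per library, and 100% of values were whole reads (tolerance 0.01 of a read). Recovered totals were 57933183 and 47374957 (mimic NC 1 and 2) and 53356283 and 32635814 (miR-217 mimic 1 and 2), so that low genes are least precise in the last.

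The 13871 of 32955 genes whose mean RPKM was 1 or more were tested on log2(RPKM + 1) with limma 3.58.1 in R 4.3.3 (eBayes with trend, no replicate term, two-sided). The fit was repeated with 0.1 as pseudocount, with the filter removed or raised to 5 RPKM, after centring on medians, with a replicate block, with voom on the recovered reads, and without each library. Simulated data were used to test the fits. These held no difference between the replicate numbers, so they cannot show how the fits do where the numbers differ, as here. Other steps used Python 3.11.15, scipy 1.17.1 and matplotlib 3.10.9. Beside the 10 members, genes named were the 2 highest and 2 lowest of each list by either difference, any with an unadjusted p under 0.05, main TEAD and NF2 pathway genes, SOS1, the 5 genes most like CTGF and markers. AXL, F3 and FJX1 were named after their values were seen. The members and lists were chosen with earlier results of these data known. Promoters and miRNAs are RefSeq sequences on GRCh38.p14, found for 8 of 10 members by symbol or synonym. Member coordinates on hg38 were the same in GENCODE 29.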

Additional observations from a re-analysis of the deposited data

How the results depend on the processing

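Under each alternative run, 0 of the 10 genes were called with the mimic by limma at an adjusted p under 0.05, the replicate block included. At an unadjusted p under 0.05, none was called except CYR61 with the replicate block and AMOTL1 without miR-217 mimic replicate 1, and the lowest adjusted p of a member in those fits was 0.633 and 0.791. The block raised the count over all genes at an unadjusted p under 0.05 from 165 to 1046, leaving out miR-217 mimic replicate 1 raised it to 866, and the count was 877 without the filter, 170 with the pseudocount of 0.1, 176 with median centring, 48 with the filter raised to 5 RPKM and 82 with voom. The numbers pair only 2 libraries with 2, and the labels do not say what they share.

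Leaving out 1 library, which leaves its group with a lone library assumed to vary like the other group, moved the mimic difference of the members with the number that was left: from -1.10 to 1.67 for CTGF, -0.49 to 1.01 for CYR61, -1.33 to 1.29 for ANKRD1, -0.69 to 0.35 for AMOTL1, -0.17 to 0.30 for AJUBA, -0.27 to 0.065 for LATS2 and -0.034 to 0.11 for WWTR1. In particular CTGF was at -1.10 without mimic NC replicate 2 and -0.84 without miR-217 mimic replicate 1, and CYR61 at -0.49 and -0.37. The difference of AMOTL2, TEAD1 and YAP1 stayed below 0. The median over the 10 genes ran from -0.23 to 0.08. ANKRD1, near 0 in the test as reported, was at 0.071 with the pseudocount of 0.1, 0.0061 with median centring and 0.30 with voom, and the cause was not tested.

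For number 2 minus number 1, leaving out a library moved the median over the members from -0.27 to -0.17, and raising the filter to 5 RPKM, which removes ANKRD1 and LATS2, moved it to -0.080. CTGF ran from -2.79 to -2.24, CYR61 from -1.57 to -1.19 and ANKRD1 from -2.59 to -2.48 when a library was left out, and ANKRD1 was at -4.20 with the pseudocount of 0.1. Depth limits ANKRD1 most, with 18 and 20 reads in the number 2 libraries.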
